A study of Mus musculus with 14 samples.

Results

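The RA-demethylated bins were 3747 segments of 200 bp in H3K4me1-marked chromatin that carried less 5mC after mouse ESCs were differentiated with retinoic acid. They were chosen by their own H3K4me1 values. A bin had to overlap a H3K4me1 peak of ESCs or of differentiated cells by at least 1 bp, to hold at least 30 CpG counts in the H3K4me1 library of each state, and to have 5mC more than 20 percentage points lower in differentiated cells than in ESCs. Of 204685 bins that met the first 2 conditions, 1.83% met the third. Since a fall of over 20 points needs a starting level above 20%, the comparison set was the 96893 other bins that began above 20% 5mC in ESCs, called the remaining bins. The 3747 bins were 3.72% of these and the demethylated bins together. For comparison, 91784 of the 204685 bins rose by more than 20 points.

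In ChIP-BS-seq, nucleosomes carrying a histone mark are precipitated and their DNA is treated with bisulfite, so that 5mC is read in DNA enriched for that mark, beside some background. The ESCs were R1, a male mouse line, kept for 2 days without the 2i inhibitors, with no retinoic acid. The differentiated cells (RA) were the same line after 4 days in 1 µM retinoic acid, a treatment that gives a mixture of states, among them cells like epiblast stem cells and like extraembryonic endoderm. XEN cells were R1 cells driven directly toward extraembryonic endoderm for 9 days with 0.1 µM retinoic acid and Activin A. For each mark there was 1 library in ESCs, 1 in differentiated cells and 2 in XEN cells. All 3 groups are cultures of the same line, and nothing in the labels says that the XEN replicates were separate cultures, so their spread may be technical.

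H3K4me1 marks enhancers whether or not they are in use, and H3K27ac is added where an enhancer is active. Methyl groups on CpGs are placed by DNMT3 enzymes and kept through replication by DNMT1, and they can be lost either because maintenance fails or through oxidation by TET enzymes. Active enhancers usually carry low methylation over the segment where transcription factors bind. Retinoic acid acts through nuclear receptors that bind enhancers, and in ESC cultures it can turn on the extraembryonic endoderm programme.

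The H3K4me1 libraries held 58803653 CpG counts in ESCs and 47177841 after retinoic acid, and the H3K27ac libraries 32588942 and 32305709. The XEN libraries were shallower, from 12147115 to 31345707. In a bulk library, fewer cells with methylated DNA and less methylation per cell cannot be told apart. No gene is named for any bin, because coordinates are those of mm9 and no annotation of that build was used here.

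The values that chose the bins are described first, with no test. Pooled over the 3747 bins, H3K4me1 5mC was 52.0% (92086 of 177232 CpG counts) in ESCs and 23.5% (68875 of 292556) in differentiated cells. The bins lay between 20.7% and 97.6% in ESCs, with a median of 52.9%, and between 0% and 74.0% in differentiated cells, with a median of 20.5%. After retinoic acid, 1801 bins were below 20% 5mC. The median change per bin was -27.8 points and the largest was -88.1. In 1521 bins the fall passed 30 points, in 572 it passed 40 and in 180 it passed 50. The median bin rested on 42.0 counts in the ESC library and 70.0 in the RA library. Choosing bins by their fall at such counts takes in some counting error, so the falls in these libraries tend to be overstated. The remaining bins went the other way, from 39.2% to 58.5% pooled, with a median change of 19.1 points.

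The threshold does not stand in a gap of the distribution. There were 599 bins within 2 points inside it and 703 within 2 points outside it. The best covered of those inside, on chromosome 13 from 102554801 to 102555000, went from 43.4% of 145 counts to 22.9% of 210. A bin on chromosome 3 from 9522201 to 9522400 went from 28.1% of 160 to 6.62% of 136, and a bin on chromosome 9 from 78433001 to 78433200 went from 33.8% of 130 to 13.6% of 132. Just outside it, a bin on chromosome 11 from 82671201 to 82671400 went from 28.6% of 133 to 10.1% of 129. A bin on chromosome 10 from 107872201 to 107872400 went from 50.0% of 128 to 30.9% of 256, and a bin on chromosome 9 from 47659201 to 47659400 went from 50.0% of 124 to 30% of 210. In the H3K27ac libraries, which the rule did not use, the bins just inside went from 41.1% to 20.1% and those just outside from 40.9% to 22.1%, so the bins around the threshold were much alike.

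Of the 3747 bins, 59 had at least 100 H3K4me1 counts in both libraries, and the 6 of these with the largest falls show the range of what followed in the other libraries. The largest fall was on chromosome 14 from 31240001 to 31240200, where H3K4me1 5mC went from 53.0% to 6.09% and H3K27ac 5mC from 51.7% of 29 counts to 5.91% of 220. In the 4 XEN libraries this bin lay between 5.41% and 22.5%. On chromosome 10 from 111017401 to 111017600, H3K4me1 5mC went from 52.3% of 151 counts to 5.39% of 204. That bin was almost free of 5mC in XEN cells, with 0% of 69 and 0% of 96 counts in the libraries labelled H3K4me1 (a count of 0 allows up to 3 counts of each total) and 4.71% and 2.38% in those labelled H3K27ac. On chromosome 5 from 142327801 to 142328000, H3K4me1 5mC went from 76.2% to 29.8%. Here the XEN libraries held more 5mC than the differentiated cells, between 33.3% and 58.3%. The bin on chromosome 6 from 22295401 to 22295600 went from 62.6% to 20.7%, and lay between 11.4% and 20.0% in XEN cells. The bin on chromosome 9 from 43666601 to 43666800 went from 54.7% to 14.0%, with XEN values between 24.2% and 28.4%. The last, on chromosome 9 from 61224201 to 61224400, went from 45.4% to 5.94%, with XEN values between 0% and 15.4%. All 6 bins lay below their ESC level in H3K4me1, which the rule chose high, in every XEN library. Against H3K27ac of ESCs this did not hold for 2 of them. The bin on chromosome 5 had 39.1% of 23 counts there and XEN values of up to 58.3%, and the bin on chromosome 9 at 43666601 had 27.3% of 11 counts and XEN values of up to 28.4%.

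**Figure D1:**
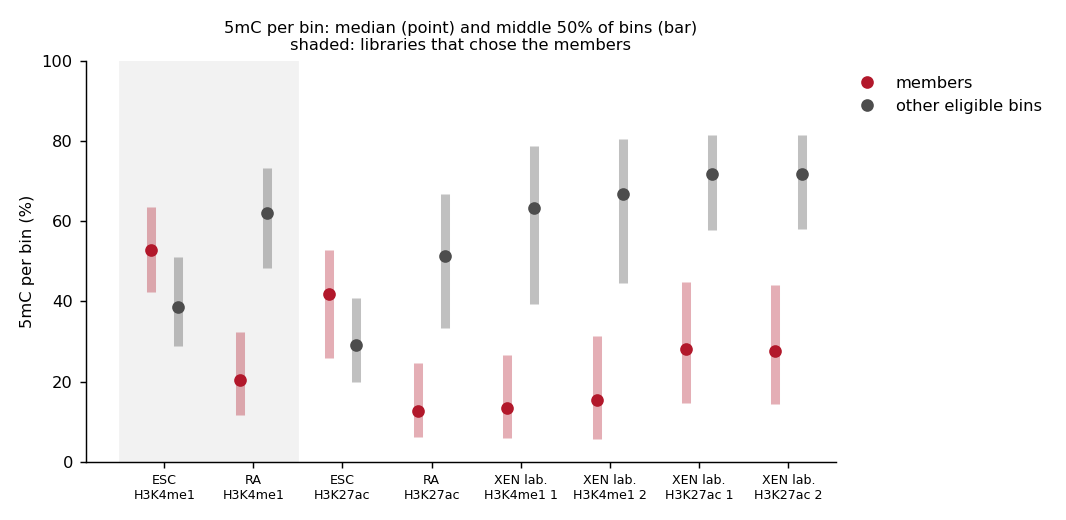
5mC per bin in % (vertical axis) in each of the 8 libraries (horizontal axis) for the demethylated bins (red, called members in the drawing) and the remaining bins (grey, other eligible bins), where that library had 30 or more CpG counts. Points are medians and bars span the middle 50% of bins. In the libraries that the rule did not use, the red medians were 41.9% (H3K27ac, ESCs, 143 bins) and 12.7% (H3K27ac, RA, 2108 bins). In the XEN libraries they were from 13.5% to 28.2%, over 729 to 3032 bins, so the medians rest on different parts of the 3747 bins.

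The H3K27ac libraries give a separate measurement of 5mC at the same places. Not all of it was read in acetylated chromatin, since 1428 of the bins lay in a H3K27ac peak of differentiated cells alone and 290 in none, and their ESC counts came from outside called peaks. Pooled over the demethylated bins, H3K27ac 5mC was 47.3% in ESCs (95% interval 46.8 to 47.8, 38466 counts) and 16.7% in differentiated cells (16.6 to 16.9, 189185 counts), so it fell by 30.6 points. In the remaining bins it rose from 37.9% to 52.1%. The size of the fall depended on coverage: over the 118 demethylated bins with at least 30 counts in both H3K27ac libraries the change was -25.6 points (37.5% to 11.9%), and over the 11 with at least 60 it was -15.3 points. Intervals are exact binomial ones (Clopper-Pearson). They allow for counting error alone, and there was 1 library per state.

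Bin by bin, H3K27ac could be compared at only a small part of these loci, because the mark was sparse there in ESCs. The median demethylated bin had 8.00 H3K27ac counts in ESCs and 35.0 in differentiated cells. At least 30 counts in both H3K27ac libraries were reached by 118 of the 3747 bins. Of these, 115 had lower 5mC after retinoic acid, and 84 (71.2%) were called lower at an adjusted p under 0.05 (Fisher's exact test per bin, adjusted by the Benjamini-Hochberg method over all 29936 bins covered this way). None was called higher. Over all 29936 bins, 0.969% were called lower and 36.1% higher. Among the 3765 remaining bins with the same coverage, 107 (2.84%) were called lower and 1692 (44.9%) higher. The test compares CpG counts of 2 libraries, not replicated cultures. CpGs on the same read are not independent, and reads with mixed states had been removed, so its p-values are too small. The median change of the 118 bins was -25.0 points, against 21.6 points in the remaining bins. With a minimum of 10 counts, 1273 of 1377 demethylated bins (92.4%) were lower, with a median change of -28.6 points, and 8848 of 40605 remaining bins (21.8%) were.

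The 6 largest changes in H3K27ac 5mC were between -64.2 and -54.8 points. On chromosome 1 from 137131601 to 137131800, H3K27ac 5mC went from 67.5% of 40 counts to 3.28% of 61 (adjusted p = 5.51e-11 by Fisher's exact test). XEN values at this bin were 5.71%, 13.5%, 13.8% and 17.6%. On chromosome 6 from 22295401 to 22295600, a bin already named for its H3K4me1 values, H3K27ac 5mC went from 82.6% of 46 to 20.5% of 88 (adjusted p = 1.18e-10 by Fisher's exact test). On chromosome 4 from 116356401 to 116356600 it went from 70.6% of 34 to 12.1% of 58, and on chromosome 17 from 86437801 to 86438000 from 68.6% of 35 to 11.1% of 117. On chromosome 11 from 20816401 to 20816600 it went from 65.0% of 40 to 9.64% of 83. This bin differed from the others in XEN cells, where it held between 36.6% and 56.2%. On chromosome 17 from 66702201 to 66702400 it went from 59.6% of 47 to 4.82% of 166. All 6 bins lay in H3K27ac peaks of both states.

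The size of the fall in H3K4me1 went with the size of the fall in H3K27ac. In the 1355 bins that fell by 20 to 25 points in H3K4me1, pooled H3K27ac 5mC fell by 23.4 points. It fell by 29.4 points in the 871 bins of 25 to 30, by 32.5 in the 949 bins of 30 to 40, by 42.8 in the 392 bins of 40 to 50 and by 51.3 in the 180 bins above 50. The starting level also rose along these classes, from 42.4% to 61.2% in H3K27ac of ESCs. The level reached in differentiated cells went down along them, from 19.1% to 9.86%. Coverage moved the fall less. Bins whose smaller H3K4me1 count was 30 to 39 fell by 31.8 points in H3K27ac, those with 40 to 59 fell by 31.1 and the 579 bins with 60 or more fell by 28.3. The classes share cells and libraries and are given as a description.

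Within differentiated cells, the 2 marks could be compared at the 2108 demethylated bins with at least 30 H3K27ac counts. Their median was 17.5% in H3K4me1 and 12.7% in H3K27ac, and H3K4me1 was the higher in 1447 (68.6%). The remaining bins showed the same order at a higher level, with 56.1% and 51.4% and H3K4me1 higher in 67.6%. A gap of more than 20 points with H3K4me1 higher was seen in 41 of the 2108 demethylated bins and in 1337 of 20853 remaining bins, and one with H3K27ac higher in 12 and 192. The H3K4me1 value of differentiated cells was chosen low by the rule, which bears on all of these counts.

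H3K27ac was more abundant at the demethylated bins after retinoic acid. Scaled to library totals (CPM), the median bin had 0.245 H3K27ac CPM in ESCs and 1.08 in differentiated cells. With counts scaled to the library totals and counts under 3 set to 3, the median log2 ratio over the 3347 bins with at least 10 counts in either library was 2.28, with the middle 50% of bins between 1.29 and 3.23. Differentiated cells had more than 2-fold higher counts in 2716 of these bins (81.1%) and more than 4-fold higher in 1933 (57.8%). They were more than 2-fold lower in 107 (3.20%). Most bins reached the minimum of 10 through the library of differentiated cells, so the filter favours a gain: the share was 94.4% with a minimum of 30, and the 2716 bins are to be read against all 3747 as well. Over all bins tested, 33.1% were more than 2-fold higher and 20.1% more than 2-fold lower, with a median log2 ratio of 0.32. The remaining bins were in between, with 42.5% higher, 13.7% lower and a median of 0.69. More than 4-fold higher were 14.2% of all bins tested and 19.4% of the remaining bins. There was 1 library per state, so these folds have no replicate check. In H3K4me1 the count also rose, by a median log2 ratio of 0.94 against 0.32 in the remaining bins, but that library chose the bins and needed 30 counts in both states.

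The peak lists gave the same picture for a called region in place of a count. A H3K27ac peak was present in differentiated cells and absent in ESCs at 1428 of the demethylated bins (38.1%), against 21.6% of the remaining bins and 14.4% of all bins tested. A further 1937 (51.7%) lay in H3K27ac peaks of both states, 92 (2.46%) in a peak of ESCs alone and 290 (7.74%) in none. All 3 shares were below those of the other sets. The remaining bins had 59.2%, 6.93% and 12.3%, and all bins tested 65.9%, 8.67% and 11.1%. The median log2 ratio of H3K27ac counts was 2.95 in the bins with a gained peak, 1.95 in those with a peak in both states, and -1.18 in the 92 bins with a peak of ESCs alone, against 1.86, 0.53 and -1.45 in the same classes of the remaining bins. Peaks and counts come from the same 2 libraries, so the order of these classes is set by the split. H3K4me1 peaks were present in both states at 3657 of the 3747 bins (97.6%), the same share as in the remaining bins (97.6%) and near that of all bins tested (97.1%), which the rule's need for a H3K4me1 peak and counts in both libraries favours. The median score of the H3K27ac peaks over the demethylated bins was 40.1 in ESCs and 152 in differentiated cells, against 68.6 and 108 for the remaining bins (scores rank peaks within a list).

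The 6 largest rises in H3K27ac counts were found by ranking on the ratio, which favours bins with few counts in ESCs. All but the bin on chromosome 15 at 98947401 lay outside the H3K27ac peaks of ESCs. On chromosome 19 from 37777001 to 37777200 there were 0 H3K27ac counts in ESCs and 335 in differentiated cells, with 5mC at 5.67%. On chromosome 15 from 96355401 to 96355600 there were 0 and 220. On chromosome 15 from 98947401 to 98947600 there was 1 count in ESCs and 207 after retinoic acid. On chromosome 8 from 11310801 to 11311000 there were 3 and 198, on chromosome 7 from 138508001 to 138508200 there were 2 and 196, and on chromosome 12 from 4726001 to 4726200 there were 4 and 257. With 3 counts as the floor, these are log2 ratios of between 6.02 and 6.82. Gain of acetylation and loss of 5mC did not go to the same end point at these 6 loci. The bin on chromosome 12 had 0% of 257 counts methylated in H3K27ac of differentiated cells (a share of up to 3 counts is allowed) and at most 2.94% in XEN cells. The bin on chromosome 15 at 98947401 still had 43.5% in H3K27ac of differentiated cells, and the bin at 96355401 had between 45.7% and 62.2% in XEN cells.

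**Figure D2:**
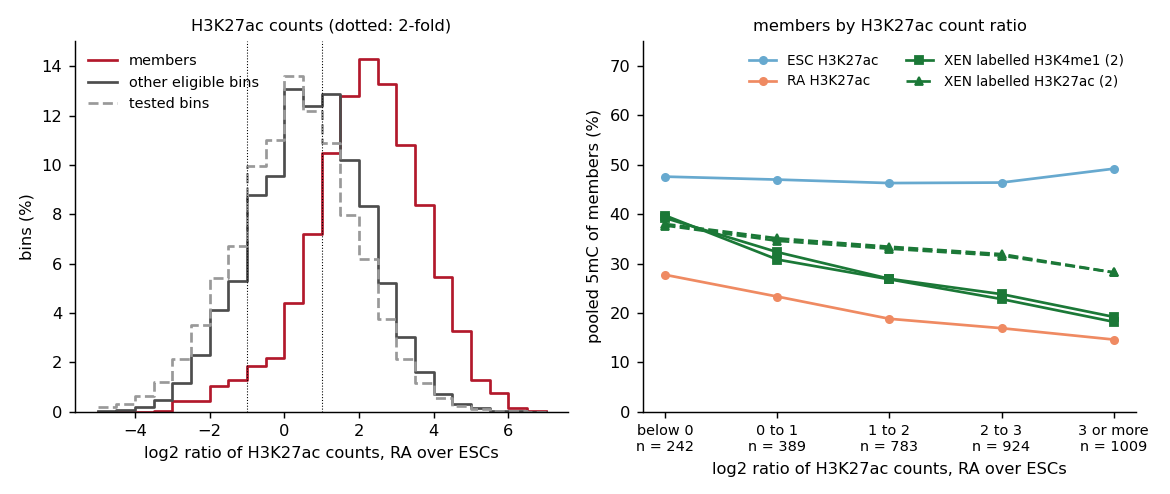
Left, share of bins in % (vertical) by log2 ratio of H3K27ac counts in differentiated cells over ESCs, scaled to library totals (horizontal), for the demethylated bins (members), the remaining bins (other eligible bins) and all tested bins, with dotted lines at 2-fold. Right, pooled 5mC of the demethylated bins in % by class of that ratio with the number of bins, where 5mC in H3K27ac of differentiated cells ran from 27.7% in the lowest class to 14.6% in the highest while that of ESCs stayed between 46.3% and 49.2%. Both panels hold only bins with at least 10 H3K27ac counts in either library.

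Bins with a larger gain of H3K27ac ended at a lower 5mC, in libraries that the rule did not use. The classes cover only the 3347 bins with at least 10 H3K27ac counts in either library, a filter that favours a gain. In the 242 of these whose H3K27ac count fell, 5mC in H3K27ac of differentiated cells was 27.7%. In the 1009 with a log2 ratio of 3 or more it was 14.6%. In ESCs the same 2 classes held 47.6% and 49.2%, so they did not differ much at the start. The XEN libraries showed the same order. Those labelled H3K4me1 held 39.7% and 39.2% in the lowest class and 18.2% and 19.2% in the highest, and those labelled H3K27ac held 38.0% and 37.7% against 28.2% and 28.2%. The H3K27ac counts of differentiated cells enter both the ratio and the level of 5mC in that library, but not the XEN values.

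To see how far the loss of 5mC reached, 5mC was pooled over bins at set distances up to 3000 bp from the demethylated bins, leaving out every bin that was itself demethylated by the rule. This takes out the neighbours with the largest falls in H3K4me1, so that a small fall or a rise in the flanks is partly fixed by the choice, and the H3K4me1 values are a description. At the next bin, 200 bp away on either side, H3K4me1 5mC went from 40.2% and 39.9% in ESCs to 35.2% and 34.3% in differentiated cells. At 400 bp it was already slightly higher in differentiated cells, with 42.1% and 41.6% against 38.4% and 38.1%. At 1000 bp it was 52.7% and 51.5% against 37.6% and 36.7%, near the levels at 3000 bp of 55.2% and 54.5% against 37.0% and 35.5%. Thus the bins left in the flanks had more 5mC in differentiated cells from 400 bp outward.

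In H3K27ac, 5mC of the same flanking bins was lower in differentiated cells out to 600 bp. At 200 bp, 5mC went from 41.8% and 40.4% in ESCs to 23.9% and 23.3% in differentiated cells, and at 400 bp from 37.8% and 37.4% to 29.9% and 28.6%. At 600 bp the difference was small, with 33.9% and 33.4% against 32.3% and 30.9%. At 1000 bp 5mC was higher in differentiated cells, with 33.8% and 35.2% against 28.1% and 29.4%. Bins next to each other share DNA fragments, so the flanks are not independent of the bins in the H3K4me1 libraries, and only the H3K27ac and XEN libraries are separate measurements. In these too the flanks leave out the demethylated bins, so their levels depend partly on the choice.

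A trough was also present in XEN cells. Its depth is partly built in, since the flanks leave out demethylated bins, which were low in XEN cells too. In the libraries labelled H3K27ac, 5mC was 31.8% and 31.7% at the bins, between 41.3% and 42.2% at 200 bp, between 60.2% and 61.0% at 1000 bp and between 62.7% and 64.3% at 3000 bp. In those labelled H3K4me1 it ran from 22.7% and 23.7% to between 46.1% and 47.8% at 1000 bp. The remaining bins had a local rise of 5mC and no trough in each of the 8 libraries, as the profile around them shows. These bins had to begin above a minimum level of 5mC in H3K4me1 of ESCs, and their flanks did not. Their rise is therefore partly built in, most directly in that library, and is not an independent contrast to the trough.

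**Figure D3:**
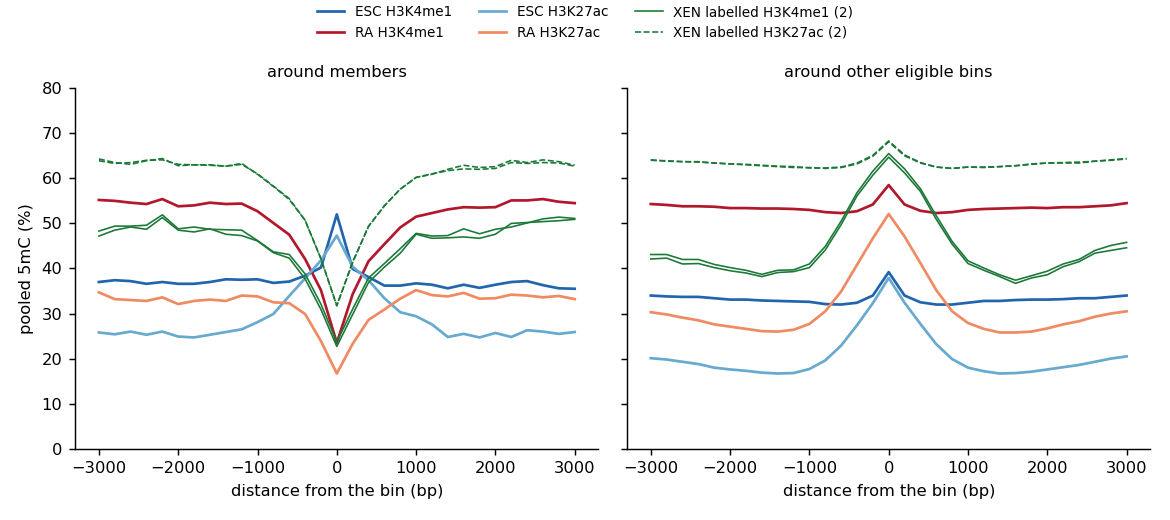
Pooled 5mC in % (vertical) by distance in bp from the demethylated bins (left) and from the remaining bins (right), with demethylated bins left out of the flanks; blue and red lines are ESCs and differentiated cells in H3K4me1, light blue and orange in H3K27ac, green the 4 XEN libraries. At the demethylated bins the ESC lines peak at 52.0% and 47.3% while the lines of differentiated and XEN cells dip to between 16.7% and 31.8%.

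In the flanks, the amount of H3K27ac signal changed with distance in opposite directions in the 2 states. H3K27ac of ESCs had 0.169 and 0.173 CPM per bin at 200 bp, against 0.213 and 0.198 at 1000 bp. In differentiated cells the order was turned, with 0.791 and 0.802 at 200 bp and 0.538 and 0.529 at 1000 bp. Around the remaining bins the order in ESCs was the same, with 0.251 on both sides at 200 bp and 0.356 and 0.353 at 1000 bp. Only the order in differentiated cells differed there, with 0.410 and 0.408 against 0.499 on both sides. The bins at distance 0 were chosen for high H3K4me1 counts and are not compared.

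Demethylated bins clustered. Of the 2443 tested bins directly next to a demethylated bin, 874 (35.8%) were demethylated too, against 1278 of 64942 (1.97%) next to a remaining bin. The share went down to 16.8% at 600 bp, 10.7% at 1000 bp and 5.15% at 2000 bp, and was 1.34% at 5000 bp and 2.93% (16 of 546) at 10000 bp, where the remaining bins had 1.82% and 1.80%. Tested neighbours that were not demethylated by the rule still differed from those of the remaining bins. Their median change in H3K4me1 was -5.16 points at 200 bp, with 1030 of 1569 (65.6%) lower in differentiated cells, against a median of 19.8 points and 12.2% lower next to the remaining bins. At 1000 bp the medians were 11.9 and 20.3 points. These are the same libraries that the rule used, and are given as a description.

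With bins joined over gaps of at most 1000 bp there were 2981 clusters. Of these, 2419 were a single bin, 562 had 2 or more and 137 had 3 or more. The clusters of 2 or more held 1328 bins, or 35.4% of the total. With a minimum of 60 H3K4me1 counts, which leaves 579 bins, the share was 17.6%. The largest clusters had 6 bins each, and there were 6 of them. They were spread over 6 chromosomes and between 1200 and 1800 bp long, and each overlapped peaks of both marks in both states.

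The cluster on chromosome 19 from 30021201 to 30022800 had the deepest loss. Over its 6 bins, H3K4me1 5mC went from 59.2% to 14.5% and H3K27ac 5mC from 62.5% of 40 counts to 9.56% of 450, with a log2 ratio of H3K27ac counts of 3.50. Its XEN values were 11.5%, 11.0%, 15.3% and 14.2%. The cluster on chromosome 9 from 77384201 to 77385600 went from 51.4% to 20.4% in H3K4me1 and from 58.3% to 9.58% in H3K27ac, with XEN values between 11.2% and 16.5% and a log2 ratio of 4.23. The cluster on chromosome 1 from 33811401 to 33812600, made of 6 bins in a row, went from 44.4% to 17.4% in H3K4me1. In H3K27ac it had 25 counts in ESCs and 588 in differentiated cells, a log2 ratio of 4.57, and its XEN values lay between 9.18% and 17.1%.

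The cluster on chromosome 12 from 31955401 to 31957000 went from 45.4% to 18.5% in H3K4me1 and from 34.4% to 6.36% in H3K27ac. Its XEN libraries were not alike, with 8.04% and 4.13% in those labelled H3K4me1 and 8.06% and 23.6% in those labelled H3K27ac. The other 2 clusters held more 5mC in every XEN library than in H3K4me1 of differentiated cells. Against H3K27ac of differentiated cells this was not particular to them. The clusters on chromosomes 19 and 9 had 9.56% and 9.58% there, below each of their XEN values. On chromosome 15 from 96573201 to 96575000, H3K4me1 5mC went from 53.4% to 27.9% and H3K27ac 5mC from 50.0% to 18.1%, while the XEN values were 36.3%, 33.5%, 40.9% and 44.0%. On chromosome 14 from 99730001 to 99731600, they went from 46.1% to 21.2% and from 45.8% to 14.6%, while the XEN values were 43.6%, 29.7%, 37.7% and 41.2%. These 2 also had the smallest gains of H3K27ac among the 6, with log2 ratios of 2.61 and 1.81.

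**Figure D4:**
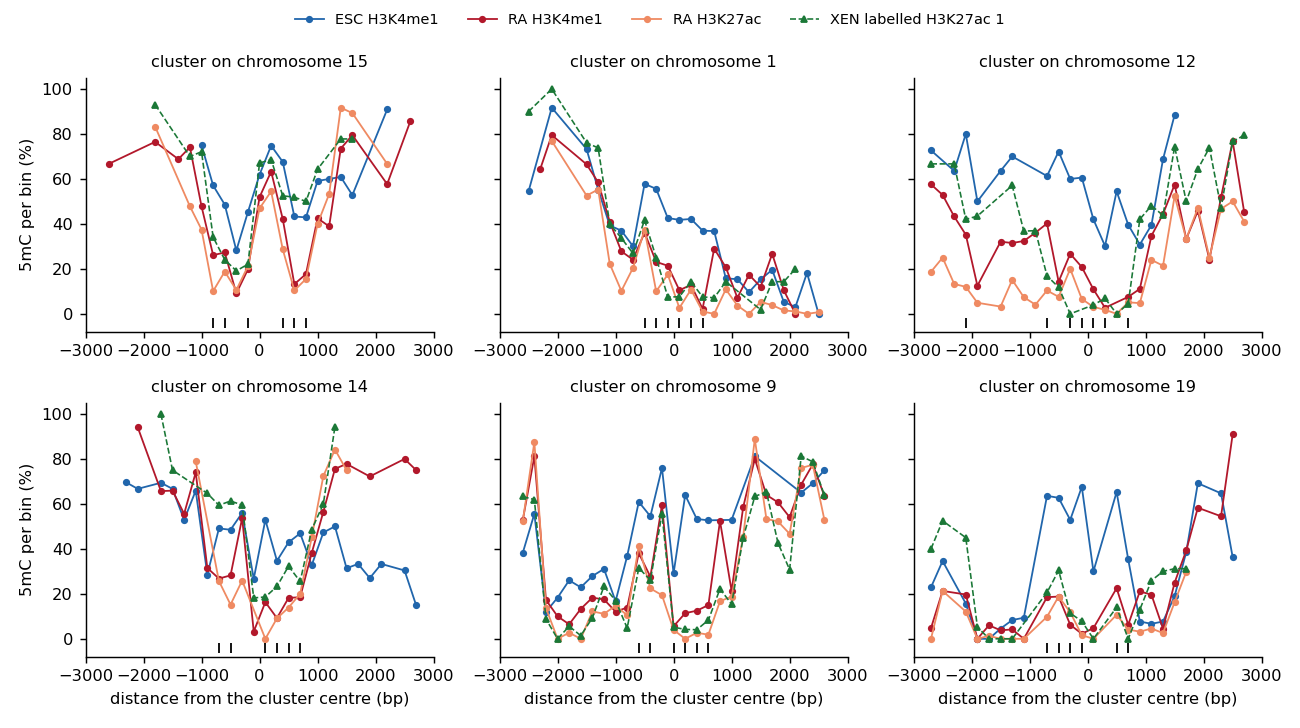
5mC per bin in % (vertical) by distance in bp from the centre of each of the 6 largest clusters (horizontal), for bins with at least 10 CpG counts in H3K4me1 of ESCs (blue), H3K4me1 (red) and H3K27ac (orange) of differentiated cells and the first XEN replicate labelled H3K27ac (green); ticks at the foot mark the demethylated bins. The XEN line lies above that of H3K4me1 in differentiated cells at several demethylated bins of the clusters on chromosomes 14 and 15. On chromosome 12 the XEN replicate not drawn was higher, with 23.6% over the cluster against 8.06% in the one drawn.

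The bins were found on every chromosome tested except Y, which had 3 eligible bins. As a share of the eligible bins of a chromosome they ranged from 3.11% on chromosome 3 (178 of 5723) to 4.76% on chromosome 1 (309 of 6487), with counting intervals of 2.68 to 3.59 and 4.26 to 5.31. Neighbouring bins are not independent, so these intervals are too narrow. On the X chromosome, present as 1 copy in this male line, it was 4.04% (24 of 594, interval 2.61 to 5.95), within the range of the autosomes. By peaks, the bins fell in 2776 of the 145840 H3K4me1 peaks of ESCs (1.90%) and in 2786 of the 158989 of differentiated cells (1.75%), most of which (2157 and 2147) held a single demethylated bin. They fell in 2469 of the 102600 H3K27ac peaks of differentiated cells (2.41%) and in 1587 of the 100469 of ESCs (1.58%). These shares are of all listed peaks, whether or not a peak held a tested bin. No background share was computed for them, so the lists are not compared.

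XEN cells were made by another protocol and were not used in the choice of bins. Before the values, a limit on their marks must be given. The deposited file names give the marks of the XEN libraries the other way round from the sample labels, and the labels are followed here. The counts lie nearer to the file names. The XEN libraries labelled H3K4me1 had 62.1% and 59.6% of their CpG counts in H3K4me1 peaks of differentiated cells, where the H3K27ac library of differentiated cells had 59.3% and the H3K4me1 library 78.1%. Those labelled H3K27ac had 86.9% and 84.7%. In H3K4me1 peaks of differentiated cells without a H3K27ac peak, the libraries labelled H3K4me1 had 6.60% and 7.52% of their counts and those labelled H3K27ac 16.7% and 17.6%, against 20.4% and 6.67% for the H3K4me1 and H3K27ac libraries of differentiated cells. H3K27ac peaks of differentiated cells did not separate the pairs, with 72.7% and 68.6% for those labelled H3K4me1 and 72.5% and 69.6% for those labelled H3K27ac. H3K27ac peaks of ESCs did, with 58.3% and 55.5% against 46.6% and 44.7%. There the H3K4me1 and H3K27ac libraries of differentiated cells had 39.8% and 55.1%. The statements that follow hold for XEN cells with either naming unless a mark is named.

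The demethylated bins were low in 5mC in XEN cells. Pooled 5mC was 22.7% and 23.7% in the libraries labelled H3K4me1 (mean 23.2% ± 0.702, SD, n = 2) and 31.8% and 31.7% in those labelled H3K27ac (31.8% ± 0.113, n = 2). In the remaining bins it was 64.7% and 65.5%, and 68.3% and 68.1%. The demethylated bins were thus lower by 42.0 and 41.8 points in the first pair (mean difference -41.9 points, SD 0.112) and by 36.5 and 36.4 in the second (-36.5 points, SD 0.0418). The SD is over 2 libraries and may be technical, so it says nothing of the spread between cultures. With the file names in place of the labels the 2 gaps change places. The low level did not begin at the threshold. The 703 bins within 2 points outside it held 29.5% and 31.0% in the libraries labelled H3K4me1, and 39.7% and 39.4% in those labelled H3K27ac. The 599 bins within 2 points inside it held 28.5% and 29.3%, and 37.4% and 37.4%.

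The gap was present at every starting level. Among bins between 20% and 30% in H3K4me1 of ESCs, the 184 demethylated bins held between 5.64% and 11.4% in the XEN libraries and the remaining bins between 56.0% and 61.7%. Between 50% and 60%, the values were between 24.6% and 32.3% for 856 bins and between 71.4% and 73.8% for the rest. Between 70% and 80% they were between 41.2% and 49.9% for 405 bins and between 73.4% and 76.5% for the rest. Only 20 demethylated bins began above 90%, and these held between 63.0% and 64.3%, against between 86.8% and 90.8%. A higher start thus went with a higher XEN level in each library, in both sets. The differentiated cells showed the same in H3K27ac at the demethylated bins, with 4.11% in the lowest of these classes and 50.3% in the highest. The rule required a fall of more than 20 points in H3K4me1, so a demethylated bin with a low start had to end low there. The order in differentiated cells is therefore partly built in. The XEN order of the demethylated bins, and their wide gap in the lowest class, may partly follow from the same choice.

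Between the 2 labelled marks, the difference at the demethylated bins was -8.55 points (labelled H3K4me1 minus labelled H3K27ac). Both replicates of the first lay below both of the second. The exact permutation test over the 4 libraries, two-sided, gave p = 0.333, which is the smallest p that 2 against 2 can give, so this design cannot pass 0.05. The remaining bins differed in the same direction by -3.12 points. Under the file names both signs turn, to 8.55 at the demethylated bins.

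Bin by bin, the XEN replicates were close. In the 2460 demethylated bins with at least 30 counts in both libraries labelled H3K27ac, the median absolute difference was 5.29 points, and in 610 bins of those labelled H3K4me1 it was 4.26 points. The 4 XEN libraries together gave at least 30 counts at 3574 of the 3747 bins, with a median of 28.1% against 72.5% in the remaining bins. XEN 5mC was below the ESC H3K4me1 level in 3237 (90.6%), against 7.67% of the remaining bins. It was below the H3K4me1 level of differentiated cells in 1012 (28.3%), against 21.8% of the remaining bins. The ESC value was chosen high, which makes the first count larger, and the RA value low, which makes the second smaller, and no test is given.

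**Figure D5:**
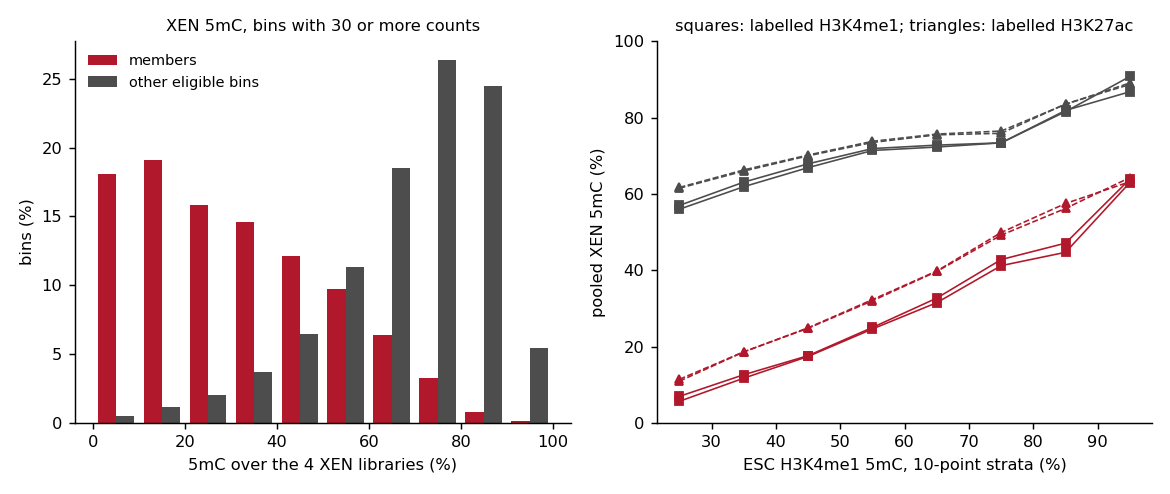
Left, share of bins in % (vertical) by 5mC over the 4 XEN libraries together in 10-point classes (horizontal), for demethylated bins (red) and remaining bins (grey) with at least 30 counts. Right, pooled 5mC in % in each of the 4 XEN libraries (vertical) by class of ESC H3K4me1 5mC (horizontal), where every red line lies below every grey line in each class.

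The demethylated bins did not behave as a single set in XEN cells. 5mC was under 20% in 1328 bins (37.2%), between 20% and 50% in 1536 (43.0%) and over 50% in 710 (19.9%). In the remaining bins the same shares were 1.64%, 12.7% and 85.6%. The 1328 low bins had begun at 43.7% in H3K4me1 of ESCs and 40.1% in H3K27ac, and held 12.2% and 7.94% in differentiated cells. The 710 high bins had begun at 65.4% and 58.0%, and held 39.8% and 38.1% in differentiated cells. Their change in H3K27ac 5mC was -20 points, against -32.2 in the low bins. The median log2 ratio of H3K27ac counts was 2.68 in the low bins, 2.23 in the middle class and 1.89 in the high bins, and the share in a H3K27ac peak of differentiated cells was 97.7%, 91.7% and 82.7%. The order of the ratios was not particular to these bins, since the same classes of the remaining bins had medians of 2.23, 1.48 and 0.66. The remaining bins had 95.5%, 84.5% and 85.4% in a H3K27ac peak of differentiated cells, so high shares there were not particular either. In ESCs the share of the demethylated bins in a H3K27ac peak was 56.9%, 54.9% and 50.7%, against 68.9%, 62.5% and 68.4% of the remaining bins.

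The signal in the XEN libraries went with these classes in the pair labelled H3K4me1. Their median level was 1.48 and 1.40 CPM in the low bins and 0.659 and 0.637 in the high bins. In the pair labelled H3K27ac it was 1.85 and 1.79 in the low bins and 1.58 and 1.56 in the high bins. In the pair labelled H3K4me1 the remaining bins had 1.40 and 1.21 CPM under 20%, 0.741 and 0.701 between 20% and 50% (1.07 and 0.956 in the demethylated bins) and 0.659 and 0.637 over 50%. The classes were made from 5mC over all 4 XEN libraries, which differ in level, so a bin with more counts in the lower pair tends to a lower class, and the order of this signal is partly built in.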

How the data were processed

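ChIP-BS-seq of H3K4me1 and H3K27ac was analysed in ESCs, differentiated cells and XEN cells. The submitters' processing notes name Bismark, Bowtie, HOMER and bedtools and the mm9 build. The authors removed reads with mixed CpG states, and the deposited values are unnormalized counts, one column of methylated and another of unmethylated CpGs for each 200-bp bin. The deposited HOMER peak lists carry a score per peak and another number that was not used. It was not established whether an ESC or RA file pools repeats. Libraries held from 12147115 to 58803653 CpG counts. Methylated counts were taken from the column that is rare on the mitochondrial genome, which is the other column in XEN files. XEN files list bins with at least 4 counts, and bins not listed were taken as 0.

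Samples were grouped by their labels. 5mC was methylated over all CpG counts. Mitochondrial bins were left out. H3K27ac 5mC was compared by two-sided Fisher's exact test per bin with Benjamini-Hochberg adjustment over all covered bins, which was tested on simulated data. Bins named in the text were the 6 clusters with most members, the 6 largest falls with 100 counts in H3K4me1, the 6 largest falls and 3 largest rises with 30 counts in H3K27ac, the 6 largest gains of H3K27ac counts with at least 30 counts after retinoic acid, and the 3 best covered on each side of the threshold. The members, lists and rules were chosen with earlier results of these data known. Alternatives were other minimums of counts, a fall of 30 points, other peak rules, gaps and scaling, XEN libraries left out, the replicate number as a block and the marks of the file names. Input, H3K36me and single-cell samples were not analysed here. Values came from Python 3.11.15, numpy 2.4.6, scipy 1.17.1 and pandas 2.3.3, drawn with matplotlib 3.10.9.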

Additional observations from a re-analysis of the deposited data

Results flagged for a closer look

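In 3 of the 118 demethylated bins covered in both H3K27ac libraries, 5mC was higher in H3K27ac after retinoic acid while it was lower in H3K4me1, and the difference between the marks was not tested. On chromosome 10 from 80641401 to 80641600, H3K4me1 5mC went from 57.6% of 139 counts to 12.9% of 70, while H3K27ac 5mC went from 46.5% of 99 to 53.7% of 121, a rise of 7.25 points (adjusted p = 0.540 by Fisher's exact test). Its XEN values were high, at 86.7%, 87.8%, 70.7% and 72.8%. On chromosome 1 from 138614401 to 138614600, H3K27ac 5mC went from 16.7% of 30 to 20.8% of 53, a rise of 4.09 points (adjusted p = 0.959 by Fisher's exact test), with XEN values between 26.9% and 40.7%. On chromosome 11 from 98766601 to 98766800, it went from 12.1% of 33 to 16.0% of 194, a rise of 3.86 points (adjusted p = 0.978 by Fisher's exact test). That bin was already low in H3K27ac of ESCs and held between 3.45% and 10.2% in XEN cells.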

How the results depend on the processing

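Of 58 alternative values 1 changed direction, 33 moved by more than the error of the reported value or by over 1.5 times, and 24 did neither. The number of demethylated bins was 8201 at a minimum of 20 H3K4me1 counts, 579 at 60 and 1521 with a fall of over 30 points. Under these 3 rules the fall in pooled H3K27ac 5mC moved to -28.3 points at 60 counts and -37.3 at 30 points, the bins called lower in H3K27ac to 48 at 60 counts and 35 at 30 points, and the share with a 2-fold gain of H3K27ac counts to 78.7% and 84.1%. The share of bins in clusters was 39.6% at 20 counts, 17.6% at 60 and 25.0% at 30 points, and 28.4%, 37.6% and 43.6% with gaps of at most 200, 2500 and 10000 bp. With minimums of 20 and 60 counts in H3K27ac, 226 of 355 and 5 of 11 covered demethylated bins were called lower, against 1.17% and 0.608% of all tested bins so covered. Pooled 5mC over the covered demethylated bins changed by -28.1 and -15.3 points. The share with a 2-fold gain was 94.4% with at least 30 counts in either H3K27ac library and 83.1% when scaled to counts outside all peaks, which raised every log2 ratio by 0.15.

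In XEN cells, the gap to the remaining bins in the libraries labelled H3K4me1 was -40.6 points at 20 counts, -42.4 at 60, -47.0 at 30 points, -42.0 with peaks of both H3K4me1 lists, -36.5 by the file names and -50.6 by medians of bins. In those labelled H3K27ac it was -34.5, -38.5, -42.2, -36.6, -41.9 and -43.8. Leaving out 1 XEN library gave gaps between -42.0 and -41.8 and between -36.5 and -36.4, and differences between the marks between -9.04 and -8.05. By the file names that difference was 8.55. With the replicate block it was -8.55 (exact p = 0.5, the smallest 2 pairs allow). The shared numbers were not shown to pair the libraries: over 562 bins the replicate differences of the 2 marks had a correlation of -0.02. The cause of these shifts was not tested.

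The main limits are 1 library per mark in ESCs and differentiated cells and the depth of H3K27ac in ESCs, where 118 of 3747 bins were tested.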
